A study of Mus musculus with 2 samples.

Results

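Ribosomal protein genes were compared between 1 wild-type library and 1 circBtnl1 knockout library of mouse cells labelled as small intestinal stem cells. The genes were chosen by symbol: names of the Rpl and Rps series, the stalk genes Rplp0, Rplp1 and Rplp2, and Rpsa. They came to 83 of the 18067 genes with values, namely 77 canonical genes (46 of the large and 31 of the small subunit) and 6 paralogs marked by an l after the number (Rpl3l, Rpl7l1, Rpl22l1, Rpl32l, Rpl39l and Rps27l). Values are TPM, a length-corrected share of all transcripts in a library. circBtnl1 is a circular RNA named after the butyrophilin-like gene Btnl1, and the labels describe the groups only as wild-type or knockout for it, with no strain, age, number of mice or method of deletion. The series set out to list transcription factors that differ between them. Since each group is a single library, the spread between animals is unknown, no test was made, and every ratio below describes these 2 libraries.

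Each ribosome holds most of these proteins in a single copy, built around the ribosomal RNAs into a small subunit that decodes mRNA and a large subunit that joins amino acids. Their mRNAs are among the most abundant in dividing cells, and many begin with a run of pyrimidines at the start site, the 5′ TOP element, through which mTORC1 and the RNA-binding protein Larp1 control their translation. A few canonical genes have expressed paralogs with narrower patterns, such as Rpl39l in the testis, Rpl3l in striated muscle and Rps27l, a p53 target. Mouse ribosomal protein genes have also left many retrotransposed copies in the genome, some of them nearly identical to the parent gene.

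To show how far a paralog can be told from its parent, the coding sequences of Rpl39 (chromosome X, 37082518 to 37085222, GRCm38) and Rpl39l (chromosome 16, 10170197 to 10174911) are given 5′ to 3′ from GENCODE M21, with capitals at the 23 of 156 bases that differ.
Rpl39: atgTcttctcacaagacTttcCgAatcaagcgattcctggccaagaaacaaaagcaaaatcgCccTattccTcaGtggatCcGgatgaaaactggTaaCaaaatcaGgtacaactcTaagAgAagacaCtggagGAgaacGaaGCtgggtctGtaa
Rpl39l: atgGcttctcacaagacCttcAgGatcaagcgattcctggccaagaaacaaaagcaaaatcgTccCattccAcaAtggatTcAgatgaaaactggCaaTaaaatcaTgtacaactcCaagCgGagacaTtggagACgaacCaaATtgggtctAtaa
The longest stretch without a difference was 38 bases, and 85.3% of bases were identical. The other pairs were further apart, with coding identities of 76.1% for Rps27 and Rps27l, 73.1% for Rpl3 and Rpl3l, 66.9% for Rpl22 and Rpl22l1 and 50.1% for Rpl7 and Rpl7l1. Rpl32l is different in kind: its transcript matched the coding sequence of Rpl32 at 96.0% identity and has no coding sequence in GENCODE M21, so the split of reads between the pair is uncertain.

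The start sites of some of these genes are shown because the 5′ TOP element lies there. Each line gives 15 bases before and 15 from a RefSeq start in GRCm38.p6, 5′ to 3′ on the gene's strand. Capitals mark a C followed by at least 5 pyrimidines within 10 bases of that start.
Rps27 (chr3:90213634-90213663, minus): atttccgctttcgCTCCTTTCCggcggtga
Rps27l (chr9:66946071-66946100, plus): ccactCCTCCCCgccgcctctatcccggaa
Rpl22 (chr4:152324421-152324450, plus): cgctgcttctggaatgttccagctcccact
Rpl22l1 (chr3:28805493-28805522, plus): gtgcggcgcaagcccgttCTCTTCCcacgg
Rpl39 (chrX:37085208-37085237, minus): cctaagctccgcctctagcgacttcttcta
Rpl39l (chr16:10170213-10170242, plus): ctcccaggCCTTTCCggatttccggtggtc
Rps6 (chr4:86857353-86857382, minus): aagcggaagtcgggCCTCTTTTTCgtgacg
Start sequences were matched for 63 of the 83 members. Within 10 bases of the starts printed, Rps27l, Rpl22l1 and Rpl39l hold a tract as defined here, while Rpl22 and Rpl39 do not. The tracts of Rps27l and Rpl39l lie wholly before the start printed, and that of Rpl22l1 begins after it. The gene spans of Rps27l and Rpl39l begin further upstream, at 66944624 and 10170197, so their tracts lie inside these spans. The upstream ends themselves were not searched for a tract. Rpl39 has a pyrimidine run after its start that the window cuts short, so it was not counted. Whether any of these runs acts as a 5′ TOP element was not tested. Among the start sequences used, Rps27l and Rpl22 each have a further RefSeq start that is not printed and holds no tract. A gene was counted if any of its starts in this set matched. A tract of this kind stood at 28 of the 57 canonical genes matched (49.1%), at 4 of the 6 paralogs and at 19.2% of the measured genes with a start sequence. The letters CTTCCGG, searched on both strands in the 300 bases around the start, were found for 24 of the 57 canonical genes (42.1%), for 2 of the 6 paralogs and for 19.9% of the measured genes. Canonical genes with a tract had a median log2 ratio of 0.71 (28 genes) and those without one 0.67 (29 genes). For CTTCCGG the medians were 0.74 (24 genes) and 0.66 (33 genes), and the ratios of genes with and without either sequence covered much the same range (0.17 to 1.43 with a tract and 0.16 to 1.30 without one).

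The libraries set the scale for what follows. No read counts were used, and depth was estimated roughly from low FPKM values. The best fits fell at 19250000 to 22500000 reads for the wild-type and 16750000 to 20750000 for the knockout library. These ranges span the length corrections tried and are not an error of the estimate. At such depths 1 read on a transcript of 500 bases amounts to about 0.2 TPM. A gene counted as measured at a mean of at least 1 TPM, which held for 12666 genes. Their median log2 ratio (knockout over wild-type) was 0.39. Genes of at least 200 TPM had a median of -0.06 (820 genes). Of 9 measured stem cell markers 6 (66.7%) had a higher value in the knockout library, beside 70.2% of all measured genes. Relative to the median measured gene 2 of the 9 were higher, and their median log2 ratio on that scale was -0.20. Among the 6 were Cd44 at 14.5 against 80.2 TPM and Prom1 at 120 against 150.2 TPM. The 3 with a lower value were Lgr5, Smoc2 (15.5 against 7.72 TPM) and Rnf43. The 10 on the list summed to 265 against 377 TPM. Of the same list Lgr5 stood at 3.13 against 1.55 TPM (wild-type first, here and below) and Olfm4 at 0.2 TPM against a listed 0, while the goblet cell product Zg16 stood at 8315 against 3413 TPM, so both of these markers were low in each library beside a goblet cell product. Btnl1 stood at 59.3 against 65.4 TPM, a value that does not separate circular from linear RNA and so does not check the genotype. The Y-linked genes also differed with the genotype label: Kdm5d had 0.01 TPM in the wild-type library and 4.8 TPM in the other, and Uty had 0.41 and 4.25 TPM. Ddx3y (0.04 and 4.27 TPM) and Eif2s3y (0.96 and 9.48 TPM) differed in the same direction. A difference in sex between the sources of the libraries was not tested and cannot be told apart from the genotype.

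Canonical ribosomal protein genes were higher in the knockout library almost without exception. All 77 were measured, 76 had a higher value in the knockout library, beside 70.2% of all measured genes, and the exception was Rpl29 at 940 against 835 TPM. Summed, they took up 7.39% of TPM in wild-type and 11.7% in knockout cells, a ratio of 1.58. The median log2 ratio over the 77 genes was 0.67 (0.28 relative to the median measured gene), with quartiles of 0.48 and 0.94. A 2-fold higher level was reached by 14 of the 77 (18.2%), beside 23.1% of all measured genes, and a 2-fold lower level by 0, beside 5.25%. The share past 2-fold higher was thus not above the background. Relative to the median measured gene 65 of 77 lay above it, and 1, Rps27, was 2-fold higher (a call lost once its identical retrogene, described with the near copies, is added), beside 13.5% of measured genes that were 2-fold higher and 10.2% that were 2-fold lower on that scale. Among other genes of at least 200 TPM, a level that most canonical genes passed, the median log2 ratio was -0.14 (746 genes).

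**Figure D1:**
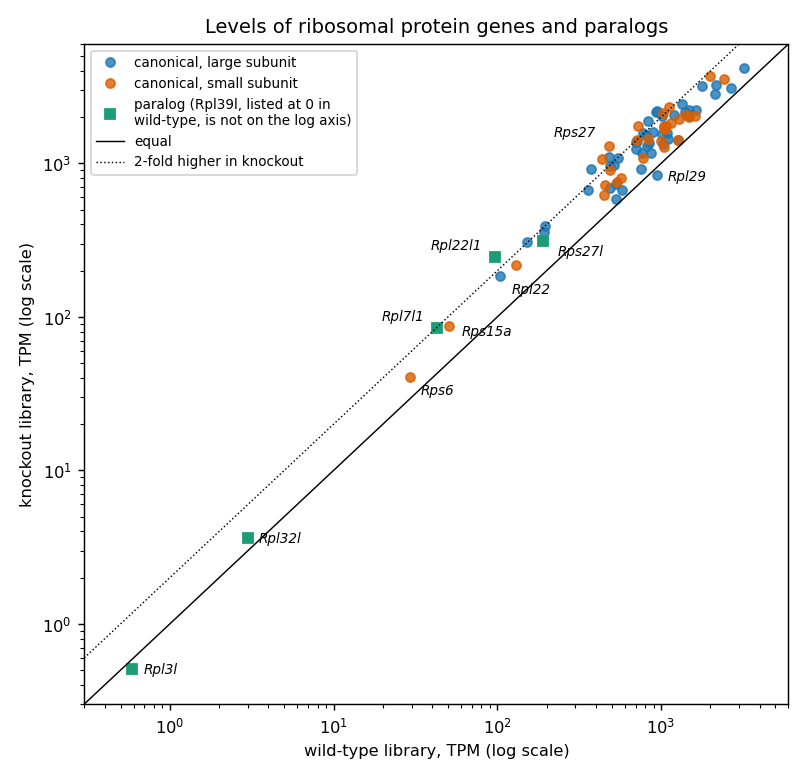
Levels of 76 of the 77 canonical genes (circles, by subunit) and of 5 paralogs (squares) in TPM, on log axes, with the wild-type library across and the knockout library upwards and 1 library on each axis. Most canonical genes lie between the line of equal values and the 2-fold line, Rpl29 lies below the former, and Rps6 lies apart at the low end with 29.2 against 40.7 TPM.

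Levels within the family spanned more than the ratios did. In the wild-type library 28 canonical genes stood between 1000 and 2000 TPM and 7 below 200 TPM, and in the knockout library the same ranges held 34 and 3. The highest by mean level were Rpl41, which encodes the smallest ribosomal protein, at 3200 against 4208 TPM, Rps2 of the small subunit at 2422 against 3535 TPM, and Rplp0, the base of the stalk, at 2665 against 3113 TPM. They were followed by Rps26 at 1994 against 3694 TPM, Rplp1 at 2169 against 3244 TPM and Rpl28 at 2141 against 2829 TPM. The lowest were Rps6, the target of S6 kinases, at 29.2 against 40.7 TPM, Rps15a at 50.8 against 87.8 TPM and Rpl22 at 104 against 185 TPM. Rps20 at 129 against 217 TPM, Rpl37 at 152 against 310 TPM and Rpl21 at 194 against 360 TPM came next. The order of levels was much the same in both libraries (Spearman's rho 0.90 over 77 genes, as a description).

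Both subunits differed by a like amount. Large subunit genes had a median log2 ratio of 0.73 (46 genes) and small subunit genes 0.67 (31 genes). Their summed levels were 1.57-fold and 1.60-fold higher in the knockout library. At least 2-fold higher were 9 large (19.6%) and 5 small subunit genes (16.1%), beside 23.1% of all measured genes. The 4 X-linked genes (Rpl10, Rpl36a, Rpl39 and Rps4x) had ratios of 0.45 to 1.30 with a median of 0.61, inside the range of the other canonical genes. For these genes too, a difference in sex between the libraries cannot be told apart from the genotype.

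**Figure D2:**
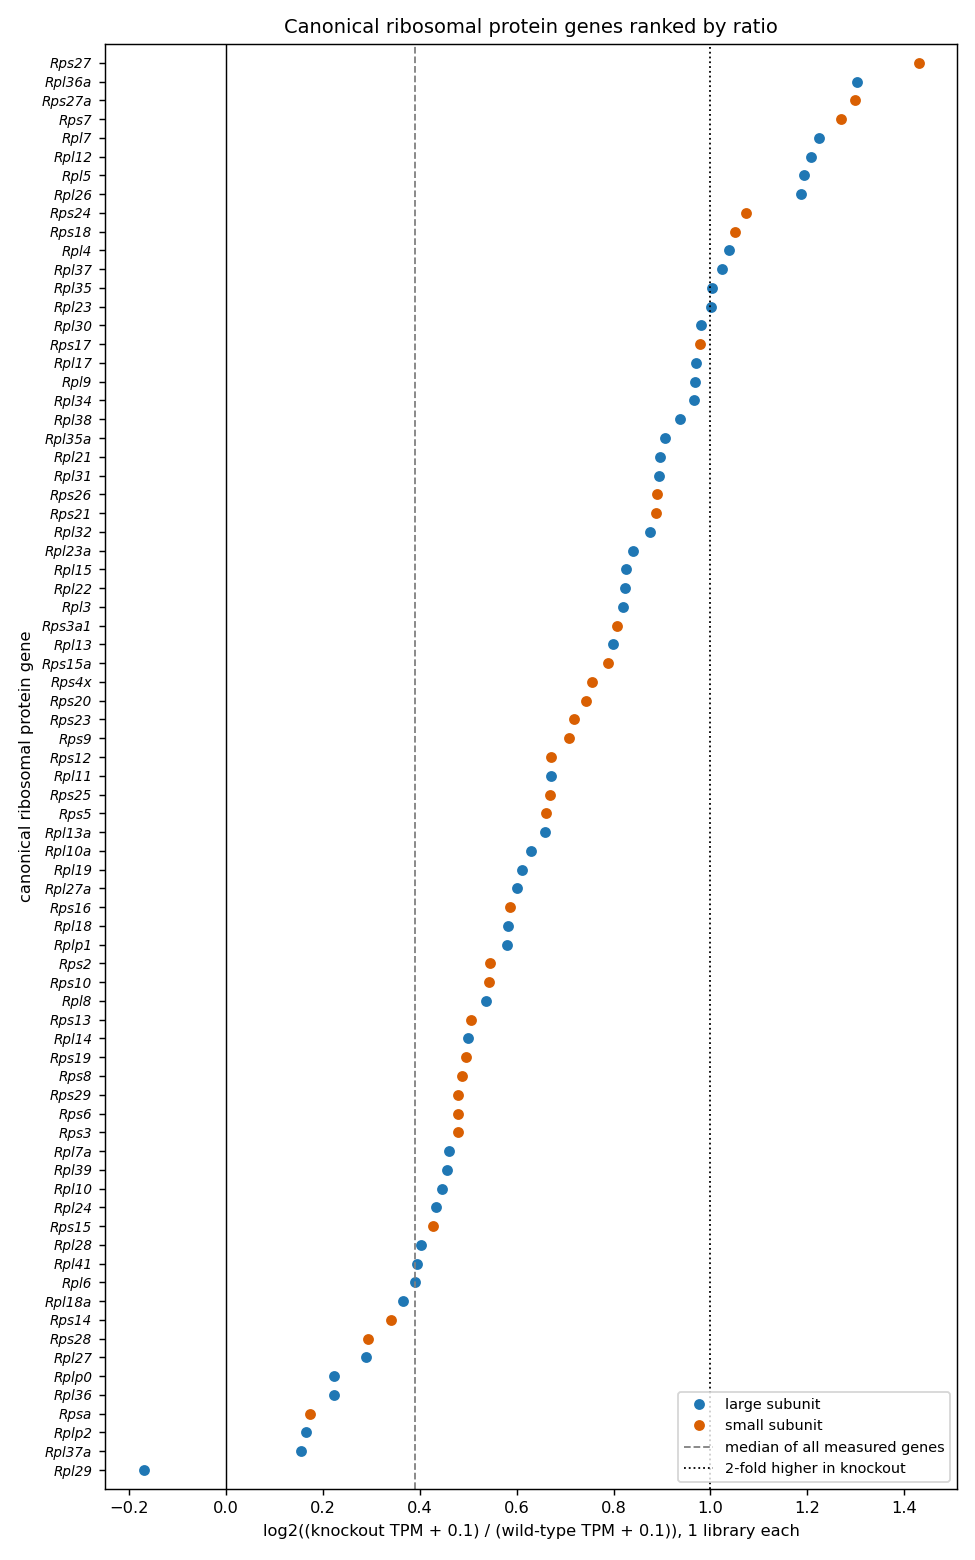
The log2 ratio of knockout over wild-type TPM for 76 of the 77 canonical genes, in order, coloured by subunit, from 1 library per group. The genes run from -0.17 for Rpl29 to 1.43 for Rps27 with both subunits mixed throughout, and 65 lie to the right of the dashed line that marks the median of all measured genes.

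At the high end stood Rps27, a zinc finger protein of the small subunit, at 479 against 1291 TPM (2.69-fold higher). Rpl36a of the large subunit followed at 371 against 915 TPM (2.47-fold higher), and Rps27a, which is made as a fusion with ubiquitin, at 434 against 1068 TPM (2.46-fold higher). Rps7 stood at 725 against 1748 TPM, Rpl7 at 932 against 2177 TPM and Rpl12, which lies at the stalk base, at 946 against 2185 TPM. Rps7 protein is also known to bind Mdm2, the ubiquitin ligase of p53. Rpl5 and Rpl11 form a particle with 5S rRNA that binds Mdm2 when ribosome assembly is disturbed, and they stood at 481 against 1101 TPM (2.29-fold higher) and 849 against 1351 TPM (1.59-fold higher). Rpl26, which binds the p53 mRNA, stood at 828 against 1885 TPM. The remaining 6 of the 14 were Rps24, Rps18, Rpl4, Rpl37, Rpl35 and Rpl23, with Rps24 the highest of them at 1111 against 2339 TPM (2.1-fold higher). Rpl23, just inside the threshold, stood at 194 against 390 TPM, and Rpl30, just outside it, at 547 against 1081 TPM (1.97-fold higher).

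At the low end the ratios were close to 1. Rpl37a stood at 528 against 588 TPM and Rpsa, also known as the laminin receptor, at 1261 against 1422 TPM. Rpl36 stood at 575 against 671 TPM and Rpl27 at 750 against 917 TPM. The stalk, which recruits the translational GTPases, lay mostly at this end: Rplp2 stood at 1268 against 1422 TPM (1.12-fold higher) and Rplp0 was 1.17-fold higher, while Rplp1 was 1.50-fold higher. Diamond-Blackfan anaemia is a human disorder of red cell production caused by loss of 1 copy of such genes. The 20 genes on its list had a median log2 ratio of 0.86, beside 0.67 over the 77 canonical genes to which they belong. All 20 were higher in the knockout library, beside 76 of the 77 canonical genes and 70.2% of all measured genes. A 2-fold higher level was reached by 6 (30%), namely Rps27, Rps7, Rpl5, Rpl26, Rps24 and Rpl35, beside 18.2% of canonical and 23.1% of all measured genes. Rps27 fell under 2-fold (log2 ratio 0.69) once its identical retrogene, described with the near copies, was added. Relative to the median measured gene 1 of the 20, again Rps27, was 2-fold higher, beside 13.5% of measured genes. Rpl27 and Rps28, at 1049 against 1285 TPM, had the lowest ratios.

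The highest and the lowest gene of this order, Rps27 and Rpl29, each have a near copy in the table. How reads were divided between gene and copy was not tested. The table was searched for other genes with a transcript at least 95% identical to a member's coding sequence over at least 80% of its length, and, apart from Rpl32l, 16 such copies were found for 11 canonical genes. The match can be part of a longer transcript, and the whole TPM of the matched gene was added. Long loci among them were Wdr89 (chromosome 12, 75630594 to 75669537), matched to Rplp2, and BC004004 (chromosome 17, 29268788 to 29302888), matched to Rpl21. Rps27 and the retrogene Rps27rt (chromosome 9, 114982366 to 114982739) have identical coding sequences, and Rps27rt stood at 846 against 840 TPM. Summed, the pair stood at 1325 against 2131 TPM, a log2 ratio of 0.69 in place of 1.43 for Rps27 alone. Rpl29, the only canonical gene lower in the knockout library, has a copy of 99.4% identity, Gm8210 on chromosome 1, at 80 against 498 TPM. Their sum stood at 1020 against 1333 TPM, 1.31-fold higher, so that with copies added all 77 canonical genes had a higher value in the knockout library.

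Some of the least abundant genes had copies too. The coding sequence of Rps6 is identical to that of a locus on chromosome 2 (LOC105244208, 75190995 to 75191854), which stood at 1108 against 1934 TPM and held 97.4% and 97.9% of the sum. Together they stood at 1137 against 1974 TPM, within the range of the other small subunit genes. Rpl37rt, at 337 against 634 TPM, brought Rpl37 to 490 against 944 TPM. With its copies Gm10045 (443 against 1246 TPM) and BC004004 (72.6 against 69.5 TPM), both 98.6% identical to it, Rpl21 stood at 709 against 1675 TPM. For Rps15a, Rps20, Rpl22 and Rpl23 no copy past these limits was found among the table's genes with a GENCODE transcript. Over all 77 genes the median log2 ratio was 0.67 with and without the copies, 14 genes were at least 2-fold higher in each case, though not the same 14: Rps27 (0.69) and Rpl37 (0.95) left and Rpl21 (1.24) and Rpl30 (1.01) joined. Further, the lowest and highest values drew in from -0.17 and 1.43 to 0.16 and 1.30.

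**Figure D3:**
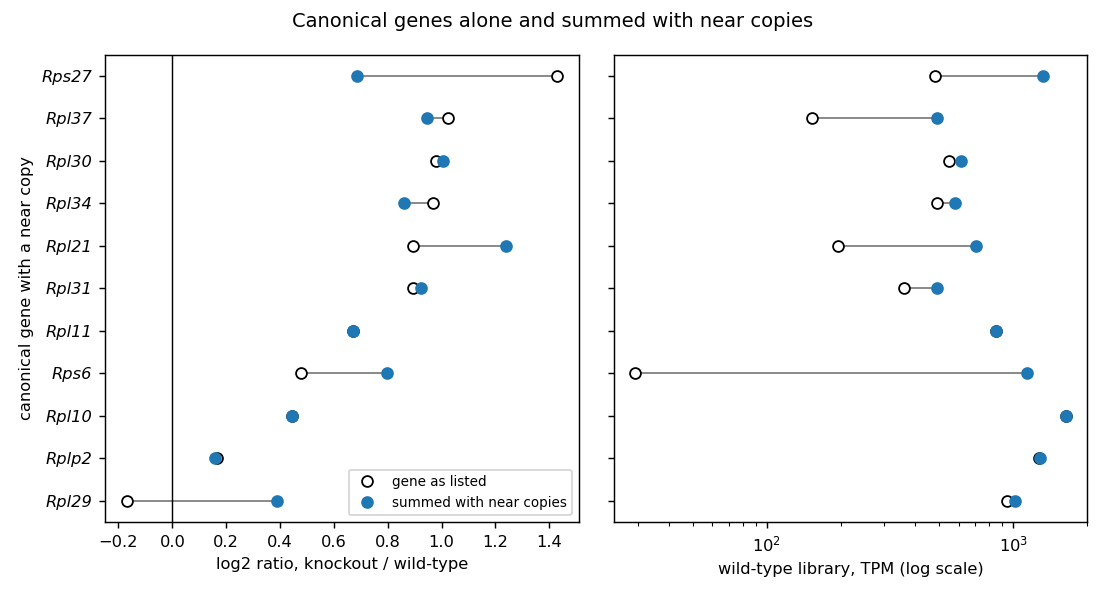
The 11 canonical genes that have a near copy in the table, each as listed (open) and summed with its copies (filled), as the log2 ratio of knockout over wild-type on the left and as TPM of the wild-type library on a log axis on the right. Rps27 and Rpl29 move toward the other genes on the left (1.43 to 0.69 and -0.17 to 0.39), and Rps6 moves from 29.2 to 1137 TPM on the right.

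The l-suffixed paralogs were not alike. Of 6, 5 were measured, and Rpl3l, the striated muscle form of Rpl3, lay below the floor at 0.59 against 0.51 TPM, or under 0.1% of the summed level of the pair in each library. All 5 measured paralogs had a higher value in the knockout library (beside 70.2% of all measured genes), 2 of them at least 2-fold, Rpl39l and Rpl22l1 (beside 23.1%), and the median log2 ratio was 0.97. Relative to the median measured gene 4 of the 5 were higher, and Rpl32l was at -0.13 (-0.14 with trimmed mean scaling). The 6 together held 0.0335% and 0.0762% of all TPM.

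Rpl39l had a value in the knockout library alone, at 116.9 TPM, with 0 listed for wild-type cells, while Rpl39, a small protein that lines the exit tunnel of the ribosome, stood at 534 against 732 TPM. The paralog thus held 0% and 13.8% of the summed level of the pair. The depth of the wild-type library does not show that the gene was silent there, since 3 reads on a transcript of 500 bases amount to 0.614 TPM. The pair differs at 23 of 156 coding bases, as printed above, and the sum of both had a log2 ratio of 0.67, equal to the canonical median.

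Rpl22l1, which is known to be held down by Rpl22 and can take its place in the ribosome, stood at 96.9 against 244 TPM (2.52-fold higher). Rpl22 itself, which is not essential for ribosome function but is needed for the development of some T cells, was 1.77-fold higher at 104 against 185 TPM. The paralog made up 48.1% of the pair in wild-type and 56.9% in knockout cells, so its level was near that of its parent in one and above it in the other. No near copy of either was found in the table. Both are low beside the other canonical genes, and their sum stood at 201 against 429 TPM.

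Rps27l stood at 191 against 312 TPM (1.63-fold higher), a ratio close to that of the canonical genes. As a share of the pair with Rps27 it was 28.5% (wild-type) and 19.5% (knockout), but with Rps27rt counted to the Rps27 side the shares were 12.6% and 12.8%. The lower share in the knockout library was thus not seen once the identical retrogene was added. Rpl7l1, whose yeast relative Rlp7 works in the assembly of the large subunit, stood at 43.0 against 84.3 TPM (1.96-fold higher), with 4.41% and 3.73% of its pair with Rpl7. Rpl32l stood at 3.01 against 3.64 TPM beside Rpl32 at 1334 against 2448 TPM, so it made up 0.225% and 0.148% of the pair; how many of its reads belong to Rpl32 was not tested.

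**Figure D4:**
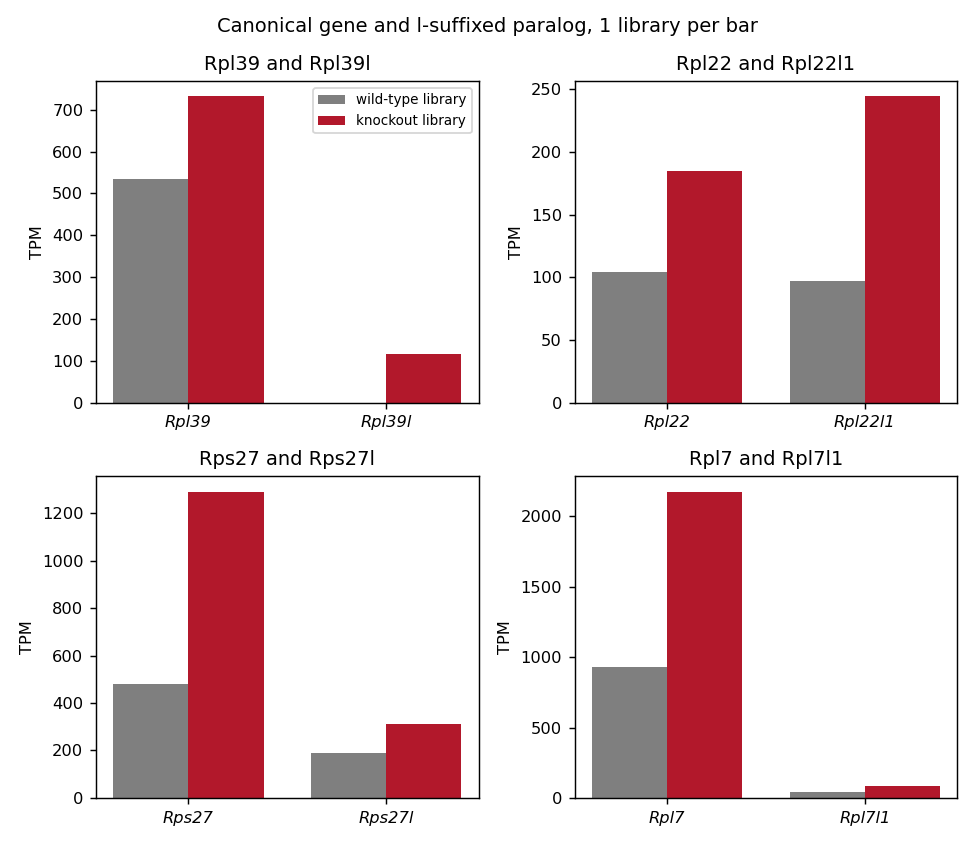
TPM of a canonical gene (left pair of bars) and its paralog (right pair of bars) in the wild-type library (grey) and the knockout library (red), 1 library per bar and a separate axis from 0 for each pair. Rpl39l has a bar in the knockout library only, at 116.9 TPM, and Rpl22l1 is the only paralog of the 4 that reaches the level of its parent.

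The ratios of canonical genes moved with base composition. Across the 77 genes Spearman's rho between the GC content of the coding sequence and the log2 ratio was -0.54, against -0.07 for coding length and -0.14 for mean TPM; genes of these libraries are not independent replicates, so these values are a description. Without the 11 genes that have near copies rho was -0.53 (66 genes). The 26 canonical genes of lowest GC content (44.2% to 50.5%) had a median log2 ratio of 0.92. Of these 9 were at least 2-fold higher, beside 23.1% of all measured genes, among them Rpl5 and Rps27a at 45.9%. The 26 of highest GC content (54.4% to 61.3%) had a median of 0.52, with 3 at least 2-fold higher, and held Rpl36 at 61.3% and Rpl29 at 57.1%. Rpl39, with the lowest GC content of all at 44.2%, had a log2 ratio of 0.46 and did not follow the order. The same direction was seen over all measured genes with a coding sequence (rho -0.26, 12432 genes). Their median log2 ratio was 0.67 at a GC content of 50.5% or less (4601 genes) and 0.17 at 54.3% or more (5251 genes). Other genes of at least 200 TPM had a median of 0.22 at a GC content of 50.5% or less (205 genes) and -0.33 at 54.3% or more (308 genes). The part of base composition in the ratios was not tested.

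**Figure D5:**
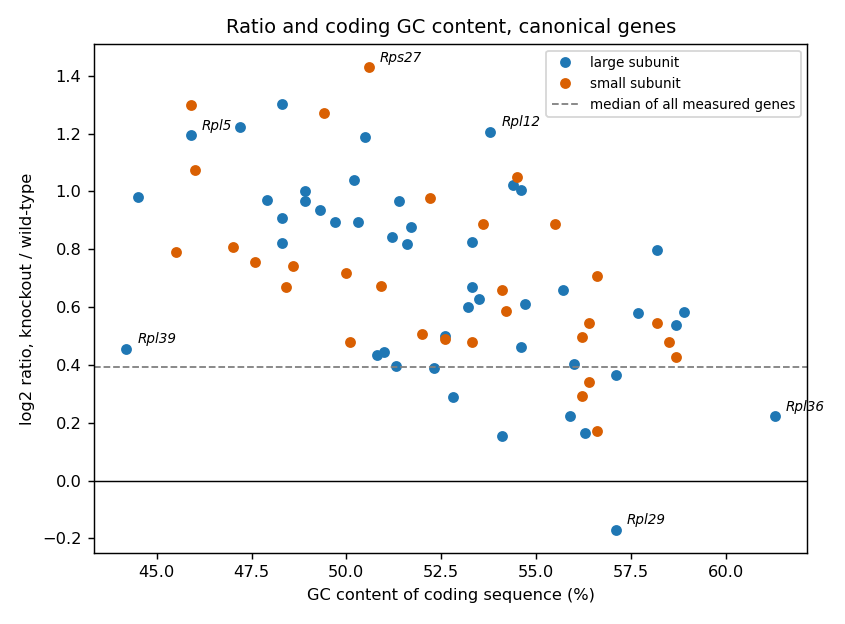
The log2 ratio of knockout over wild-type TPM against the GC content of the coding sequence in percent, for 76 of the 77 canonical genes coloured by subunit, 1 library per group. Ratios are lower toward the right, from a median over all 77 genes of 0.92 in the 26 of lowest GC content to 0.52 in the 26 of highest, and Rpl39 at the left edge lies below genes of like GC content.

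Genes around the ribosome were read from lists. Of the ribosomal proteins whose symbols lie outside the rule 5 were in the table. Their median log2 ratio was 0.39, as it was over all measured genes. None (0) was past 2-fold, beside 23.1% of all measured genes that were higher and 5.25% that were lower. Fau, a fusion with a ubiquitin-like protein, stood at 1068 against 1398 TPM. Rps27rt, given above, was also among them. The scaffold protein gene Rack1 stood at 1119 against 1767 TPM and Rpl36al, a near relative of Rpl36a, at 287 against 507 TPM. The 14 other mRNAs with a 5′ TOP element had a median of 0.69, close to the canonical 0.67, and 5 (35.7%) were at least 2-fold higher, beside 23.1% of all measured genes. These were Npm1, a nucleolar chaperone, at 169 against 838 TPM, Nap1l1 at 43.3 against 209 TPM, Eif3e at 81.1 against 214 TPM, Tpt1 at 2264 against 5051 TPM and Hnrnpa1 at 170 against 354 TPM. The elongation factor genes Eef2, at 1572 against 1670 TPM, and Eef1a1, at 4578 against 5780 TPM, differed less, and Eif3f had a lower value at 411 against 343 TPM.

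Of 11 genes that control TOP mRNAs 2 (18.2%) were at least 2-fold higher, a share under the 23.1% of all measured genes. Eif4ebp1, a translation repressor that mTORC1 inactivates, stood at 55.8 against 392 TPM (7.02-fold higher) and the S6 kinase gene Rps6kb1 at 16.3 against 35.5 TPM (2.18-fold higher). Mtor stood at 18.4 against 19.5 TPM and Larp1 at 97.7 against 100.05 TPM, whereas Eif4ebp2 was lower at 144 against 98.0 TPM and Tsc2 at 39.0 against 32.7 TPM. Dedicated chaperones, which hold newly made ribosomal proteins until assembly, had a median log2 ratio of 1.26, and 6 of 9 were at least 2-fold higher (beside 23.1% of all measured genes). Heatr3, which in human cells brings Rpl5 to the nucleus, stood at 6.7 against 34.4 TPM and Rrs1, which in yeast brings the 5S particle to the pre-ribosome, at 13.9 against 52.7 TPM. Aamp stood at 98.8 against 98.3 TPM and Pdcd2l at 17.4 against 25.2 TPM.

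Markers of other cells and of growth state moved between the libraries too. All 6 proliferation markers had a higher value in the knockout library, beside 70.2% of all measured genes, with a summed level of 295 against 535 TPM. Of the 6, 1 (16.7%), Pcna, was at least 2-fold higher, beside 23.1%, and relative to the median measured gene 5 were higher and Mki67 was lower (-0.11). Of 9 T and NK cell markers all had a lower value, beside 3773 of the 12666 measured genes, with sums of 104 against 52.9 TPM. Lower too were 6 of 7 measured myeloid markers, with sums over the list of 40.8 against 16.2 TPM. The 4 hemoglobin genes of the erythroid list summed to 276 against 11.3 TPM. Of the Paneth cell list 2 genes were measured, Ang4 at 583 against 2679 TPM and Mmp7 at 9.29 against 1.1 TPM, while Lyz1 stood at 0.87 against 0.31 TPM. Of 7 goblet cell markers 4 had a lower value, with sums of 24510 against 16820 TPM, and of 6 measured enterocyte markers 4. Both counts stand beside the same 3773 of 12666 measured genes. The enterocyte list summed to 2291 against 1723 TPM, of which Krt20 made up 2065 and 919 TPM. The 2 measured enterocyte markers with a higher value were Fabp2 at 135 against 757 TPM and Slc2a5 at 0.74 against 1.73 TPM. Fibroblast and muscle markers summed to 39.6 against 125 TPM, of which Col1a2 made up 3.76 and 64.4 TPM. The 3 endothelial markers summed to 1.32 against 1.38 TPM and the 3 B cell markers to 1.02 against 0.66 TPM, and Lct and Apoa4 were listed at 0 for wild-type cells. In bulk RNA a different mix of cells cannot be told apart from a different amount of RNA per cell, and the part of these markers in the ribosomal protein ratios was not tested.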

How the data were processed

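RNA of 2 libraries, 1 wild-type and 1 knockout, was extracted with a micro-scale column kit and made into libraries with an MGIEasy kit, per the labels' protocols, and read on a BGISEQ-500 instrument, per the series' design text. Strandedness was not stated. Deposited by the authors were FPKM values (fragments per kilobase, scaled to the mapped fragments) and TPM values per gene, per the file headers; TPM summed to 1000000 in each library. Per the submitters' processing notes the build was mm10 and the tools were Bowtie2, RSEM and DESeq2, with no role given. Of 18068 lines 1 had no values. No column of values was left out (0).

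Ratios were log2((knockout TPM + 0.1)/(wild-type TPM + 0.1)), which understates low genes, and printed folds are plain TPM ratios. Genes at a mean of 1 TPM or more were measured, and 2-fold was the size rule. The calculation was tested on simulated data. Near copies were found with BLASTN 2.17.0 against GENCODE M21 transcripts (374 table genes had none and were not searched), and coding sequences of pairs, in place of the planned protein sequences, were aligned with Biopython 1.88. Depth was taken, among many values tried, where the largest share of low FPKM values of single-exon genes fell near whole reads. At this best fit 60.4% (wild-type, 53 genes) and 66.7% (knockout, 63 genes) lay within 0.15 of whole reads. At a given depth 30% would do so by chance. Sequences are from RefSeq (GRCm38.p6) and GENCODE.

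Named genes were all paralogs and their parents, the 8 highest and 8 lowest canonical ratios, the 6 most and 6 least abundant canonical genes, the stalk and 5S genes, every canonical gene past 2-fold, and the 2 highest and 2 lowest of each related list; Rpl30, Rpl36al, Rps27rt, the copies, further list members and context genes were named after their values were seen. Members, lists and rules were chosen with earlier results of these data known. Bxdc2, Gnb2l1 and Defa17 matched no symbol. Values of 1 canonical gene and 1 gene of a related list are not reported here singly or plotted, but are part of the summaries.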

Additional observations from a re-analysis of the deposited data

How the results depend on the processing

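There was 1 library per group, so the limits are those of single libraries. Depth limits how closely a low value, such as that of Rpl3l or of Rpl39l in the wild-type library, is known. The 116.9 TPM of Rpl39l in the knockout library is far above the 0.652 TPM of 3 reads on 500 bases there. No paired analysis was possible because each group has 1 library, and no library could be left out. A log2 value was taken as moved past a difference of 0.1, a share past 10% of itself and a count past 1.5 times. Pseudocounts of 1 and 0.01, FPKM and the addition of -ps copies moved none of the summary values past these limits. Within the limits, FPKM values put 19 canonical genes in place of 14, and 3 paralogs in place of 2, at least 2-fold higher. Trimmed mean scaling and centring on the median gene subtract about 0.4 from every log2 ratio: the canonical median became 0.27 and 0.28, the large subunit 0.33 and 0.34, the small subunit 0.27 and 0.28, and the paralog median 0.57 and 0.58. Under both, 1 canonical gene and 1 paralog were at least 2-fold higher. The paralog median was 0.84 with no floor and 1.15 with a floor of 5 TPM. Rescaled without the 10 most abundant genes, 9 canonical genes were at least 2-fold higher and the wild-type share of canonical genes was 8.27%. With near copies added, an alternative chosen after seeing the data, Rps27l made up 12.6% and 12.8% of its pair. Of 409 values of single named members under these settings 319 stayed within 0.1, and 90 moved, 82 of them under the scalings. Members with low ratios turned negative there, 10 under trimmed mean scaling and 8 under centring, among them Rpl37a (-0.25 and -0.24), Rplp2 (-0.24 and -0.23), Rpsa (-0.23 and -0.22), Rpl36, Rplp0, Rpl27 and Rpl32l, and Rpl29 turned positive with near copies.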
